A study of Homo sapiens with 12 samples.

Results

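The genes described here are 8 that pathologists and geneticists use to describe ovarian carcinoma, taken by name out of the 57773 genes of the deposited table: the lineage and surface markers PAX8, WT1, MUC16, MSLN and FOLR1, and the driver genes ARID1A, BRAF and PIK3CA. All 8 names were found. They were measured by total RNA sequencing in ES-2, a human cell line derived from an ovarian cancer and grown in culture. The groups were cells given siRNAs against IGF2BP1 (siI1), against IGF2BP2 (siI2), against IGF2BP3 (siI3) or control siRNAs (siC), with 3 libraries each and 12 in all. The 3 targets are RNA-binding proteins that bind mRNAs and are known to stabilise many of them. All groups share the one unmodified parental line, so every value is of a single cell line. Nothing in the labels tells whether replicates were separate cultures, and p-values measure only the spread between these libraries, which may be technical.

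PAX8 is a transcription factor of the Müllerian epithelium, and WT1 is a zinc finger transcription factor of mesothelium and serous carcinoma. MUC16 encodes the very large mucin that carries the CA125 antigen, MSLN encodes mesothelin, a surface protein that binds MUC16, and FOLR1 encodes folate receptor alpha. ARID1A is a subunit of the SWI/SNF chromatin remodelling complex and is often lost in clear cell and endometrioid ovarian carcinoma. BRAF is a kinase of the RAS-RAF-MEK-ERK cascade, and PIK3CA encodes the catalytic p110 alpha subunit of PI3-kinase; both are activated by mutation in subsets of ovarian tumours, and ES-2 is known as a line with an activating BRAF mutation. Counts per gene do not show alleles, so mutations were not examined.

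The 200 bases before the annotated start are shown for 4 members. Among the 8 genes, ARID1A and BRAF had the highest levels per kilobase, and PAX8 and MUC16 had lower ones. The sequences are from RefSeq on GRCh38.p14, with CG dinucleotides in capitals; RefSeq entries were matched for 6 of the 8 genes, and those of MSLN and FOLR1 were not. ARID1A is on the plus strand at chr1:26695815-26696014.
ARID1A: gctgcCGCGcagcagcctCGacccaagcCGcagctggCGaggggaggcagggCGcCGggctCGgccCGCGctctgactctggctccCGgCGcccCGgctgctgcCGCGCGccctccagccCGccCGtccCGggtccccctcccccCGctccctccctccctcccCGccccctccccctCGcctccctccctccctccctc
BRAF is on the minus strand at chr7:140924269-140924468.
BRAF: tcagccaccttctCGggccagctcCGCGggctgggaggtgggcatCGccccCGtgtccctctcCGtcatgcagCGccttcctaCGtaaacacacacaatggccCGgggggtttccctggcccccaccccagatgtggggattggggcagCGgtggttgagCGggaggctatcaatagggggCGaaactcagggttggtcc
PAX8 is on the minus strand at chr2:113278922-113279121.
PAX8: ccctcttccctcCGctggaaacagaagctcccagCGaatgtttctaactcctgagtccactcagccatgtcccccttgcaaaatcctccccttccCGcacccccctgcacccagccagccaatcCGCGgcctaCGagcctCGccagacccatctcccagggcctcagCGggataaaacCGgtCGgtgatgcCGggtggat
MUC16 is on the minus strand at chr19:9065752-9065951, the first of 2 listed starts.
MUC16: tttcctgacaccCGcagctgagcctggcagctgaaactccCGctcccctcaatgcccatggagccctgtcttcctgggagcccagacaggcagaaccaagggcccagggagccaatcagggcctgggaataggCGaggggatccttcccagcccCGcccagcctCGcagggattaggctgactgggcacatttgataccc
The motif CG reads the same on both strands. It occurred 22 times in the ARID1A window, 12 times in that of BRAF, 11 times in that of PAX8 and 5 times in that of MUC16, beside a median of 9 over 35116 RefSeq promoter windows of the same length. The ARID1A window held more than 80.7% of those windows did, and the MUC16 window more than 37.7%. PAX8 had a CG count close to that of BRAF, and a lower level per kilobase (given with the levels). Of the windows not printed, that of PIK3CA held 14 and those of the listed WT1 starts 16, 9, 13 and 3. The first WT1 window thus held more than that of BRAF, although WT1 had a lower level per kilobase. CG counts therefore did not follow the order of the levels. The match is a description of these windows only. The first bases of the RefSeq starts of ARID1A, BRAF, PIK3CA and MUC16 were not found as transcript starts in GENCODE 29. That annotation gave the exon lengths used here, so these windows may not lie before the transcripts whose levels are given.

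The reads recovered from the deposited values, spike-in RNAs included, numbered 3299360 (siI2 replicate 3) to 11304060 (siC replicate 2) per library. Levels are in FPM, fragments scaled to a common library size by the authors, and 3 reads, the number taken here as the limit of detection, equal 0.32 to 0.73 FPM. Each siRNA lowered its own target (limma adjusted p of 0.000658 or less): IGF2BP1 averaged 11.1 FPM in siI1 and 43.9 in siC, IGF2BP2 13.4 in siI2 and 80.0 in siC, and IGF2BP3 4.52 in siI3 and 23.5 in siC. IGF2BP3 also lay lower under the other siRNAs, at 13.3 to 17.4 FPM in siI1 and 11.1 to 18.2 in siI2, against 19.5 to 29.4 in siC, with no call (log2 fold changes -0.58 and -0.63, limma adjusted p = 0.190 and 0.201; corrected -0.09 and -0.14). IGF2BP1 lay higher in siI2 (53.8 to 58.6 FPM) than in siC (40.7 to 49.1), and its siI3 values (35.3 to 42.5) overlapped siC. IGF2BP2 lay higher in siI1 (84.1 to 97.1 FPM) and siI3 (94.0 to 117) than in siC (74.8 to 83.9). In siC replicates 1 and 3, levels fell with GC content, with slopes of -0.46 and -0.43 on the log2 scale per 10 points of GC, against -0.09 to 0.21 in the other 10 libraries. The fold changes of the tested members against siC are therefore also given after correction for GC content and length. The library siI3 replicate 3 stands apart: 7828 other coding genes that average under 1 FPM summed to 5064 FPM there, and to 1332 to 2407 FPM in the other 11 libraries. In bulk RNA, fewer cells with a transcript and less of it per cell cannot be told apart.

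Epithelial markers were present only in part. KRT7 averaged 488 to 874 FPM and KRT18 123 to 311 FPM over the 4 groups, while the epithelial adhesion genes EPCAM and CDH1 had at most 4 and 6 reads in any library. The mesenchymal filament gene VIM averaged 338 to 914 FPM. The leukocyte markers PTPRC and CD3E had at most 5 and 1 reads. The endothelial cadherin CDH5 averaged 60.5 to 140 FPM, whereas KDR, another endothelial gene, had at most 12 reads. Among serous markers outside the 8 genes, the transcription factor MECOM averaged 20.6 to 35.2 FPM. SOX17, EMX2 and SLPI had at most 4, 3 and 1 reads. WFDC2 was at 0 in 11 libraries with 3 reads in siI3 replicate 3. ESR1, PGR and CDH6 lay between, with at most 17, 31 and 14 reads. Those counts came from siC replicate 2 for ESR1 and from siI3 replicate 3 for PGR and CDH6.

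The 8 genes fell into driver genes above 3 reads in every library and lineage markers at or under 3 reads in 2 (MUC16) to 12 (FOLR1) libraries. Compared per kilobase of exon, the mean level over the 12 libraries was 2.36 FPM per kb for ARID1A (1.56 to 3.395), 0.430 for BRAF (0.179 to 0.919) and 0.277 for PIK3CA (0.0968 to 0.574). It was 0.177 for WT1 (0 to 0.581), 0.173 for MSLN (0 to 0.646), 0.150 for PAX8 (0.0157 to 0.393), 0.0523 for MUC16 (0 to 0.243) and 0.0447 for FOLR1 (0 to 0.189). Only the range of ARID1A was clear of its neighbour in this order; every other neighbouring pair overlapped. Among 19263 coding genes, ARID1A stood at percentile 69.6, BRAF at 47.4 and PIK3CA at 43.0, and the 5 lineage markers at 17.8 (FOLR1) to 38.3 (WT1). The length is that of all annotated exons of a gene together. With the longest transcript instead, BRAF had 1.05 FPM per kb, ARID1A 4.38, PIK3CA 0.289 and PAX8 0.267. WT1 then had 0.2335, MSLN 0.184, FOLR1 0.0554 and MUC16 0.0523. By this length PAX8 stood above WT1 and MSLN and close to PIK3CA.

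**Figure D1:**
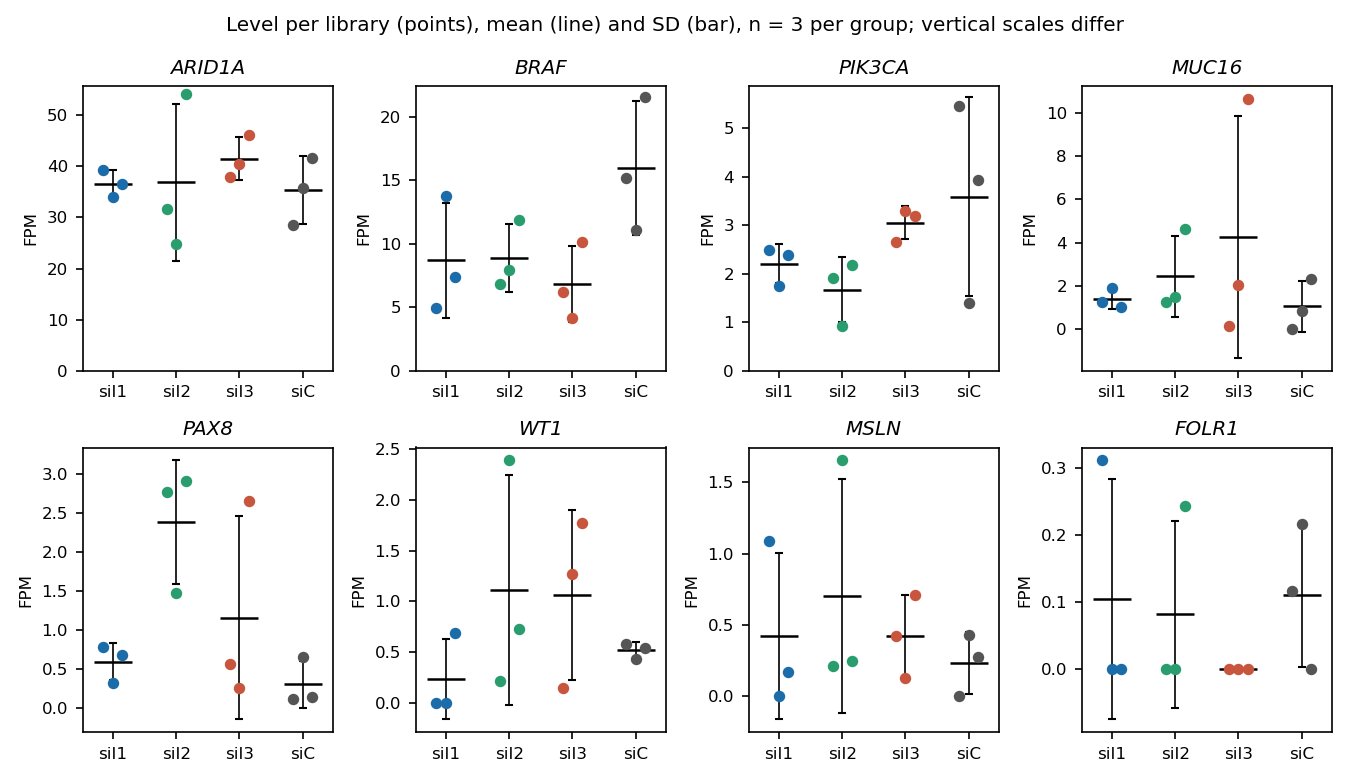
Level of each of the 8 genes in FPM (vertical axis, a scale of its own per gene) in the siI1, siI2, siI3 and siC libraries; points are libraries, the line is the mean and the bar the SD of 3. ARID1A lies between 24.8 and 54.1 FPM in all groups, whereas FOLR1 is never above 0.311 FPM, and the high MUC16 point of 10.6 FPM is siI3 replicate 3.

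Of the lineage markers, FOLR1 was the one at or under 3 reads in all 12 libraries. It had 2, 0 and 0 reads in siI1, 0, 0 and 1 in siI2, 0, 0 and 0 in siI3, and 1, 2 and 0 in siC, or 6 reads in all. A level under 0.32 to 0.73 FPM, depending on the library, was not detectable at this depth. Its paralogs FOLR2 and FOLR3 were as low, with at most 5 and 2 reads. SLC19A1, the reduced folate carrier that takes up folate by another route, averaged 60.3 FPM in siI1, 68.8 in siI2, 70.8 in siI3 and 50.9 in siC.

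WT1 had 0, 0 and 4 reads in siI1, 1, 13 and 3 in siI2, 1, 10 and 10 in siI3, and 5, 4 and 4 in siC. The siC libraries were the most even of the 4 groups, and every knockdown group overlapped them. MSLN had 7, 0 and 1 reads in siI1, 1, 9 and 1 in siI2, 3, 1 and 4 in siI3, and 0, 4 and 2 in siC, again with all groups overlapping. WT1 and MSLN, like FOLR1, did not pass the filter on low counts and have no test. WT1 neighbours the antisense transcript WT1-AS, which had at most 3 reads. Whether reads were counted by strand was not given in the sources used here, so reads of a gene and of its antisense partner cannot be told apart.

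PAX8 was low throughout and highest in siI2. Its levels were 0.776, 0.320 and 0.684 FPM in siI1, 2.77, 1.47 and 2.91 in siI2, 0.561, 0.254 and 2.66 in siI3, and 0.116, 0.647 and 0.135 in siC. The reads behind them were 13, 8 and 12 in siI2 and 1, 6 and 1 in siC. All 3 siI2 libraries were thus above all siC and siI1 libraries, while in siI3 replicate 3 alone reached that range. PAX8-AS1, which overlaps PAX8, had 1.49, 0.735 and 0.727 FPM in siI2 and 1.04, 1.08 and 1.22 in siC, from 3 to 10 reads a library, and the groups overlapped. PAX2 and PAX5, the closest relatives of PAX8, stayed at or below 13 and 7 reads, and both had their highest count in siI3 replicate 3.

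MUC16 had 1.24, 1.92 and 1.03 FPM in siI1, 1.28, 1.47 and 4.61 in siI2, 0.140, 2.03 and 10.6 in siI3, and 0, 0.863 and 2.30 in siC. Its transcript is the longest of the 8, with 43830 exonic bases, so these reads amount to very little per kilobase. Of its 161 reads over all libraries, 60 came from siI3 replicate 3, against 1 and 16 in the other siI3 libraries. The mucin gene MUC4 did likewise, with 11, 16 and 57 reads in siI3 and 5, 15 and 11 in siC, while MUC1, the epithelial mucin often found with MUC16 in carcinoma, had at most 5 reads in any library. PAX8 and MUC16 passed the filter through the libraries in which they are high: PAX8 through siI2 replicates 1 and 3 and siI3 replicate 3, and MUC16 through 5 libraries, siI3 replicate 3 among them.

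The library siI3 replicate 3 carried more signal of genes that are otherwise barely detected, and MUC16 had its highest level there. Summed over PAX8, WT1, MUC16, MSLN and FOLR1, it held 15.8 FPM, against 1.26 and 3.68 in the other siI3 libraries and 0.812 to 8.73 over all other 11. MUC16 supplied 10.6 FPM of that sum, and without it the sum was 5.14 FPM in siI3 replicate 3 and 5.51 FPM in siI2 replicate 2. PAX8, WT1 and MSLN were each higher in a siI2 library, at 2.91, 2.39 and 1.65 FPM, than in siI3 replicate 3, at 2.66, 1.77 and 0.709 FPM, and FOLR1 had 0 reads in siI3 replicate 3. In that library 71.9% of the 7828 low coding genes had at least 1 read, against 36.4 to 54.9% elsewhere. Olfactory receptor genes, 354 genes whose protein products belong to the nose and which were picked for this comparison after the values were seen, had 0.0572 FPM per kb there and 0.00729 to 0.0229 in the other 11 libraries. The level there, as a ratio to the mean of the other 11 libraries, was 6.93 for MUC16, 2.79 for WT1, 2.75 for PAX8 and 1.69 for MSLN, beside 2.97 for the low coding genes and 4.51 for the olfactory receptor genes. For the driver genes it was 1.25 (ARID1A), 1.24 (PIK3CA) and 1.002 (BRAF). The part of this library-wide signal in the lineage markers' values was not tested.

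**Figure D2:**
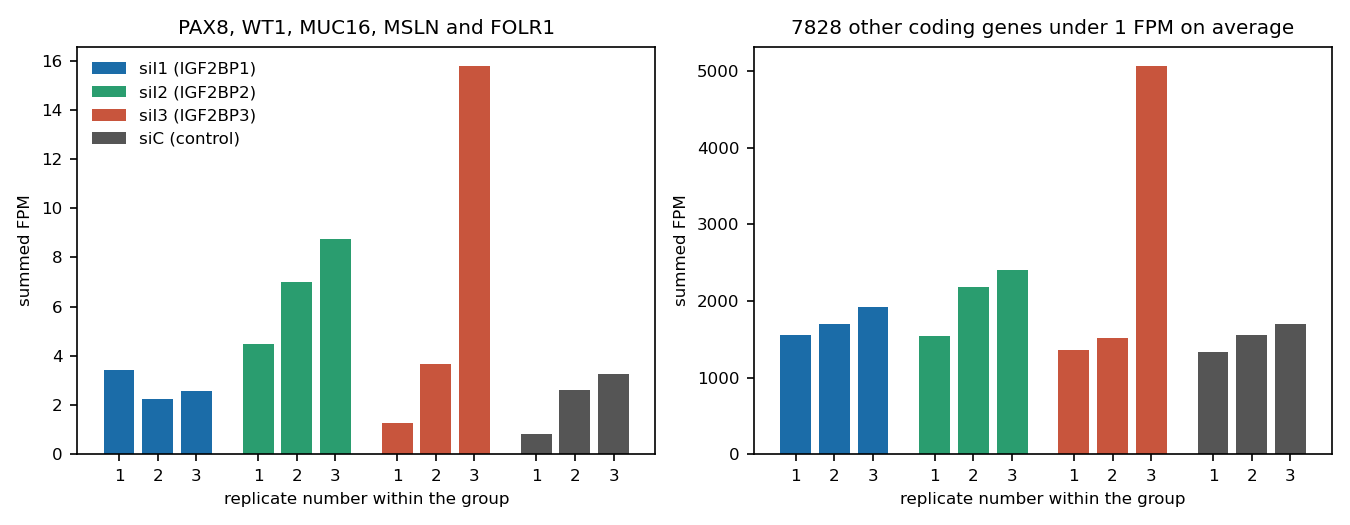
Summed FPM per library (bars) of the 5 lineage markers (left) and of 7828 other coding genes under 1 FPM on average (right), by group and replicate number. In both, siI3 replicate 3 has the highest bar, at 15.8 and 5064 FPM, and MUC16 makes up 10.6 FPM of the first.

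In siI2, replicates 2 and 3 also had more of this signal than any siC library, with low coding genes summing to 1540, 2185 and 2407 FPM in siI2 and 1332, 1551 and 1703 FPM in siC. So did siI1 replicate 3, at 1924 FPM, where PAX8 had 0.684 FPM. The share of low coding genes with at least 1 read was 40.3, 51.9 and 36.4% in siI2 and 46.9, 54.9 and 49.9% in siC. PAX8 had 2.77, 1.47 and 2.91 FPM in the same siI2 libraries, and the part of this signal in those values was not tested.

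The knockdowns were then compared with siC for the 5 genes that passed the filter, by limma on log2(FPM + 1) with p-values adjusted over all 13782 genes tested; a gene is called here when its adjusted p is below 0.05, and fold changes on this scale understate changes of low genes. No member was called in siI1 (0 of 5), where 8.18% of all genes tested were. None was called in siI2 (0 of 5), beside 1.51% of all genes, and none in siI3 (0 of 5), beside 10.6%. After GC and length correction the counts were also 0 of 5 in siI1, siI2 and siI3, beside 7.11%, 1.53% and 7.1% of all genes. By edgeR's quasi-likelihood test on reads recovered from the FPM they were again 0 of 5, beside 10.1%, 1.34% and 9.94%. DESeq2 called 1 member, BRAF in siI3 (adjusted p = 0.0495), beside 16.7% of all genes, and gave no adjusted p for PAX8 in siI1 and siI2. At an unadjusted limma p below 0.05 there was 1 member in each: BRAF in siI1, PAX8 in siI2 and BRAF in siI3, beside 27.6%, 22.8% and 30% of all genes. By edgeR the unadjusted counts were 0 in siI1, 1 in siI2 (PAX8) and 1 in siI3 (BRAF), beside 28.6%, 21% and 32.2% of all genes. PAX8 passed the filter mainly through siI2 libraries, so its entry in siI2 is a description.

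**Figure D3:**
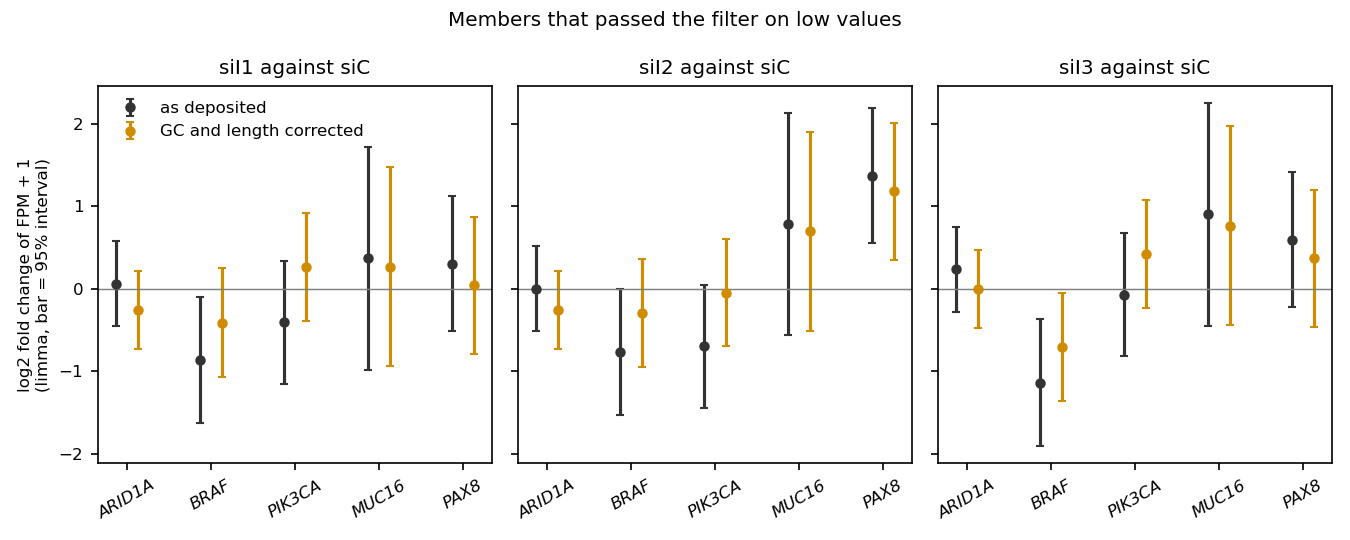
Log2 fold change of FPM + 1 for the 5 tested genes in siI1, siI2 and siI3 against siC (points, limma), with 95% intervals (bars), as deposited (dark) and after GC and length correction (orange). The correction moves PIK3CA in siI1 to 0.26 where the deposited values give -0.41, and BRAF in siI3 to -0.71 where they give -1.14.

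BRAF came closest to a call in siI3. It had 6.17, 4.19 and 10.1 FPM in siI3 and 15.2, 11.1 and 21.5 in siC, and the groups did not overlap; 20% of all genes tested were lower without overlap in this comparison. The siI3 mean was 42.8% of that of siC (6.82 ± 3.01 and 15.9 ± 5.25 FPM, SD, n = 3 each). The log2 fold change was -1.14 (SE 0.36, 95% interval -1.91 to -0.37, limma adjusted p = 0.0550). After GC and length correction it was -0.71 (SE 0.31, limma adjusted p = 0.160), and edgeR gave -1.17 (adjusted p = 0.0810). Leaving out siI3 replicate 3 gave -1.43 and a call (limma adjusted p = 0.0200), as did leaving out siC replicate 2 (-1.36, adjusted p = 0.0284). The other 4 fits with 1 library left out made no call (limma adjusted p up to 0.225). After GC correction no such fit called BRAF, with limma adjusted p of 0.0560 to 0.458. The count of all genes called also varied between fits with 1 library left out, and its ranges are given in the last section. The siC libraries with high BRAF, replicates 1 and 3, are those with the GC trend. BRAF has 40.0% GC in its longest transcript. In siC replicate 2, which lacks the trend, it had 11.1 FPM, above the highest siI3 value of 10.1 FPM. The part of the GC trend in the BRAF difference was not tested.

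BRAF was also low in the other knockdowns, with overlap. It had 4.97, 13.8 and 7.35 FPM in siI1, and 6.81, 7.90 and 11.9 FPM in siI2. In siI1, replicate 2 was above siC replicate 2, and in siI2, replicate 3 was. The log2 fold change was -0.86 in siI1 (SE 0.36, limma adjusted p = 0.139) and -0.77 in siI2 (SE 0.36, adjusted p = 0.219), and after correction -0.41 and -0.29. These 2 comparisons and that of siI3 share the siC libraries. Between knockdowns, BRAF differed by 0.28 in siI1 over siI3 (95% interval -0.49 to 1.05) and by 0.37 in siI2 over siI3 (-0.40 to 1.14), so a difference of about 1 on the log2 scale between knockdowns remained within these intervals. The pseudogene BRAFP1, a near copy of BRAF, had at most 4 reads, so few reads were assigned to it.

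PAX8 passed the filter through 3 libraries, of which 2 are siI2 libraries, so its values in siI2 against siC are a description and its p-values support no difference. The group means were 2.38 ± 0.794 FPM in siI2 and 0.299 ± 0.301 FPM in siC (SD, n = 3 each), without overlap; 7.72% of all genes tested were higher without overlap. The log2 fold change of FPM + 1 was 1.37 (SE 0.39, 95% interval 0.56 to 2.19, limma adjusted p = 0.0763), and after GC and length correction it was 1.18 (adjusted p = 0.163). edgeR, which adds no FPM to the values, gave 2.95 (adjusted p = 0.0983), and the authors' deposited table gives 2.86 with an FDR of 0.0946. It was called without siC replicate 2 (1.56, limma adjusted p = 0.0356) and without siI2 replicate 2 (1.59, adjusted p = 0.0299), and adjusted p reached 0.313 without siC replicate 1. With no filter on low values the adjusted p was 0.210. In the other knockdowns the log2 fold change was 0.31 in siI1 (limma adjusted p = 0.635; corrected 0.04) and 0.59 in siI3 (adjusted p = 0.312; corrected 0.37), where it was 0.13 without siI3 replicate 3.

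PIK3CA had 2.48, 1.76 and 2.39 FPM in siI1, 1.92, 0.919 and 2.18 in siI2, 2.67, 3.30 and 3.19 in siI3, and 5.45, 1.402 and 3.93 in siC. The siC libraries spanned all knockdown groups except siI2 replicate 2, with the high values in the same replicates 1 and 3 as for BRAF. PIK3CA has 34.8% GC in its longest transcript, the lowest of the 8 genes. The log2 fold change was -0.41 in siI1, -0.70 in siI2 and -0.07 in siI3 (limma adjusted p = 0.469, 0.247 and 0.911), and after GC and length correction it was 0.26, -0.05 and 0.42. The sign therefore turned in siI1 and siI3 with the correction. Without siC replicate 2, PIK3CA was called in siI2 (-1.11, limma adjusted p = 0.0417), but not after correction in that fit (-0.17, adjusted p = 0.830).

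ARID1A, the most abundant of the 8, had 39.3, 33.9 and 36.6 FPM in siI1, 31.7, 24.8 and 54.1 in siI2, 37.9, 40.5 and 46.1 in siI3, and 28.5, 35.8 and 41.7 in siC. All groups overlapped. The log2 fold change was 0.06 in siI1 (95% interval -0.46 to 0.58), 0.00 in siI2 (-0.52 to 0.52) and 0.24 in siI3 (-0.28 to 0.76), with limma adjusted p of 0.891, 0.998 and 0.531. After correction it was -0.26, -0.26 and -0.00. The 95% intervals of the deposited values reached no further from 0 than 0.76 on the log2 scale.

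MUC16 was not called in any knockdown, with log2 fold changes of 0.37 in siI1, 0.79 in siI2 and 0.90 in siI3 (limma adjusted p = 0.738, 0.479 and 0.351), and 0.27, 0.70 and 0.77 after correction. Its intervals were the widest of the 5, reaching -0.45 and 2.25 in siI3. Without siI3 replicate 3 the siI3 value was 0.02. In the authors' deposited table no member has an FDR below 0.05, and the lowest FDR of the 8 is that of PAX8 in siI2.

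Set against each other, the knockdowns gave no call among the 5 genes either. The counts by limma were 0 of 5 in siI1 against siI2 (2.4% of all genes called), 0 of 5 in siI1 against siI3 (7.05%) and 0 of 5 in siI2 against siI3 (2%). They were also 0 of 5 after correction (4.96%, 11.9% and 3.98% of all genes) and by edgeR (2.19%, 7.28% and 2%). At an unadjusted p below 0.05 there was 1 member in siI1 against siI2, PAX8, by limma and by edgeR, and 0 in the other 2 by both, beside 14.3%, 20.6% and 14.5% of all genes by limma and 14.1%, 21.3% and 15.1% by edgeR. PAX8 was lower in all siI1 than in all siI2 libraries, as were 8.16% of genes, with a log2 fold change of -1.07 (SE 0.39, limma adjusted p = 0.193), again a description because of the filter. In siI2 against siI3 it was 0.78 (limma adjusted p = 0.372), and PAX8 was called after GC correction without siI3 replicate 3 (1.35, limma adjusted p = 0.0169). With that library left out, PAX8 had passed the filter only through siI2 libraries, so this call too is a description and supports no difference. PIK3CA was lower without overlap in siI1 than in siI3, as were 12.1% of genes, and in siI2 than in siI3, as were 8.84%, with log2 fold changes of -0.34 and -0.63 (adjusted p = 0.649 and 0.439).

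ARAF and PIK3CD, close paralogs of BRAF and PIK3CA, were more abundant per kilobase than either in every group. ARAF, another RAF kinase, averaged 12.04 FPM per kb in siI1, 10.1 in siI2, 12.4 in siI3 and 8.44 in siC. BRAF averaged 0.371 FPM per kb in siI1, 0.378 in siI2, 0.291 in siI3 and 0.680 in siC. Among catalytic PI3-kinase subunits, PIK3CD, which is best known from leukocytes, averaged 6.77 FPM per kb in siI1, 9.07 in siI2, 8.09 in siI3 and 6.38 in siC. PIK3CB was in the range of PIK3CA, with 0.199 FPM per kb in siI1, 0.231 in siI2, 0.142 in siI3 and 0.423 in siC. ARID1B, which takes the place of ARID1A in the same complex, averaged 1.14 FPM per kb in siI1, 1.21 in siI2, 1.31 in siI3 and 0.944 in siC. These levels depend on the annotated exon length, and their order was not tested.

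**Figure D4:**
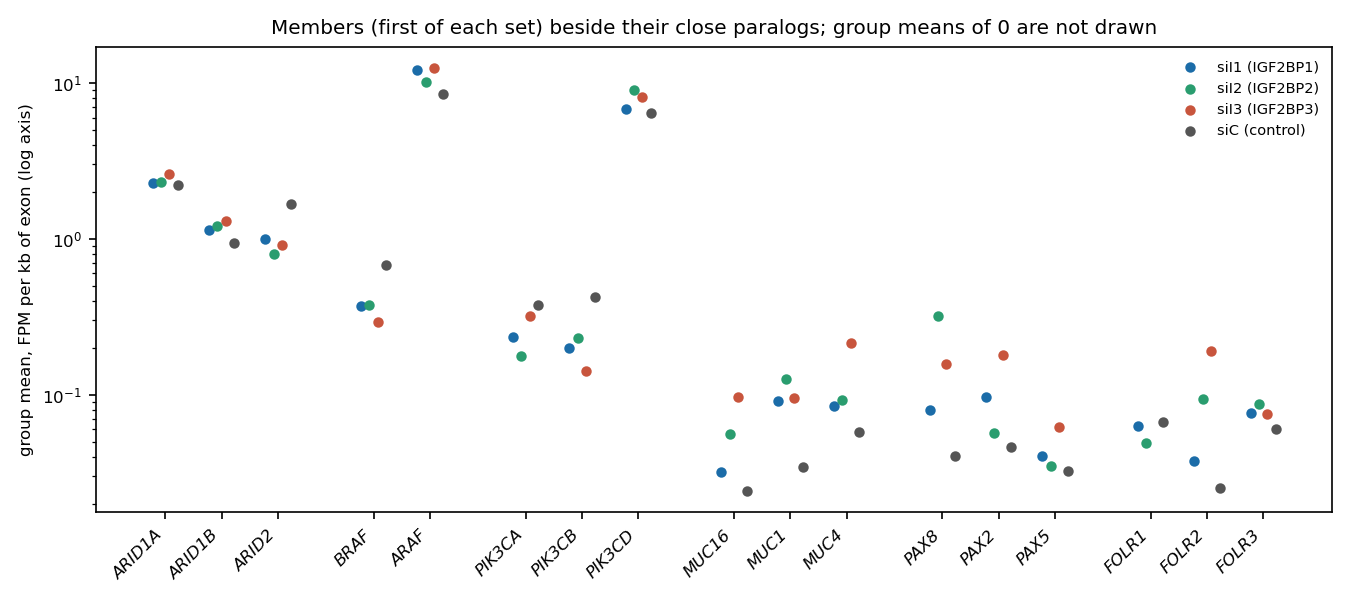
Group means in FPM per kb of exon (log axis) of 6 of the genes, each first in its set, beside 1 or 2 close relatives; colours are the siRNA groups, and a mean of 0 is not drawn. ARAF lies between 8.44 and 12.4 FPM per kb and BRAF at 0.680 or less, and the sets of MUC16, PAX8 and FOLR1 at 0.322 or less.

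The pathways around the driver genes were described from lists of their known genes. The lists include ARID1A (SWI/SNF), BRAF (RAS-RAF-MEK-ERK) and PIK3CA (PI3K-AKT-mTOR) themselves, which were not called. Of 26 SWI/SNF subunits tested, 0 were called higher and 2 lower in siI1, 0 in either direction in siI2, and 0 higher and 3 lower in siI3. Over all genes tested, 3.77% were called higher and 4.42% lower in siI1, 0.573% and 0.936% in siI2, and 2.3% and 8.29% in siI3. The list's median log2 fold changes were -0.06, -0.05 and 0.14, beside -0.05, -0.09 and -0.05 over all genes tested. After correction 1 was called higher and 3 lower in siI1, 0 in siI2, and 0 higher and 2 lower in siI3. ACTL6A, an actin-related subunit, fell in siI1 to 9.94 ± 1.27 FPM, against 32.2 ± 10.7 in siC (limma log2 fold change -1.55, SE 0.29, adjusted p = 0.00400; corrected -1.10, adjusted p = 0.00793), and kept the call in all 6 fits with 1 library left out. SMARCD2, another subunit, fell in siI1 to 107 ± 6.56 FPM, against 183 ± 33.2 in siC (-0.76, SE 0.19, adjusted p = 0.0252; corrected -1.04, adjusted p = 8.23e-05), and without correction lost the call when siC replicate 1 or 3 or any siI1 library was left out (adjusted p up to 0.0931). ACTL6A in siI3 (-1.27, adjusted p = 0.0176), BRD7 (-1.25, 0.0423) and PHF10 (-1.58, 0.0227) lost the call when siC replicate 1 or 3 or siI3 replicate 1 or 2 was left out (adjusted p up to 0.181), and BRD7 also after correction (adjusted p = 0.0934).

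Of 18 genes of the RAS-RAF-MEK-ERK core, 1 was called higher and 3 lower in siI1, 0 and 1 in siI2, and 1 and 3 in siI3, and the list's medians were -0.39, -0.30 and -0.40. After correction the medians were -0.06, -0.16 and -0.11, and the counts 1 and 2, 0 and 0, and 1 and 1. MAPK3, which encodes ERK1, rose in siI1 to 60.5 ± 2.61 FPM, against 32.2 ± 7.13 in siC (limma log2 fold change 0.91, SE 0.19, adjusted p = 0.00980; corrected 0.57, adjusted p = 0.0191), with the call lost when siC replicate 1 or 3 or siI1 replicate 1 was left out (adjusted p up to 0.0700). PTPN11, the SHP2 phosphatase, fell by 1.05 in siI1, 1.11 in siI2 and 0.88 in siI3 (limma adjusted p = 0.0173, 0.0362 and 0.0343), and after correction only the siI1 value kept the call (adjusted p = 0.0326, 0.0665 and 0.104). RASA1 in siI1 (-1.26, adjusted p = 0.0402) and NRAS in siI3 (-1.21, 0.0487) lost the call after correction, and the scaffold gene KSR1 in siI3 (0.78, 0.0366) kept it. Each call of PTPN11, RASA1, NRAS and KSR1 was lost when siC replicate 1 or 3 was left out, and also when a knockdown library was: siI1 replicate 1 or 3 (PTPN11, RASA1) or 2 (RASA1), siI2 replicate 1 or 3 (PTPN11), siI3 replicate 1 or 2 (PTPN11, NRAS, KSR1) or 3 (KSR1). The adjusted p in these fits reached 0.223.

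Of 17 genes of the PI3K-AKT-mTOR core, 1 was called higher and 1 lower in siI1, 0 in siI2, and 0 higher and 1 lower in siI3, with medians of 0.03, -0.08 and -0.06. INPP4B, a phosphatase that acts against PI3-kinase signals, fell in siI1 to 7.86 ± 3.21 FPM, against 24.0 ± 5.26 in siC (limma log2 fold change -1.54, SE 0.31, adjusted p = 0.00778; corrected -0.96, adjusted p = 0.0390). It lost the call when siC replicate 1 or 3 or siI1 replicate 3 was left out (adjusted p up to 0.0554). INPP4B in siI3 (-1.12, adjusted p = 0.0346) and AKT2 in siI1 (0.68, 0.0347) lost it after correction (0.135 and 0.0899), when siC replicate 1 or 3 was left out, and when siI3 replicate 1 or 2 (INPP4B) or any siI1 library (AKT2) was, with adjusted p up to 0.196. Of 10 genes of folate receptors, transport and use, 0 were called in any knockdown, and after correction 1, SHMT2, was lower in siI1 (-0.76, adjusted p = 0.00289).

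Of 14 other driver and suppressor genes of ovarian carcinoma, 1 was called higher and 1 lower in siI1, 1 and 0 in siI2, and 0 and 1 in siI3. CCNE1, which encodes cyclin E1, fell in siI1 to 6.62 ± 1.39 FPM, against 14.2 ± 2.09 in siC (limma adjusted p = 0.0303; corrected -1.05, 0.0153), lost when siC replicate 1 or 3 or any siI1 library was left out (up to 0.156). CTNNB1, which encodes beta-catenin, fell in siI3 (-0.87, adjusted p = 0.0192), lost after correction (0.0553) and when siC replicate 1 or 3 or siI3 replicate 2 was left out (up to 0.113).

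Among lineage lists, 0 of 5 tested serous and Müllerian markers, 0 of 4 clear cell markers and 0 of 2 mesothelial markers were called against siC in any knockdown. The 5 serous and Müllerian markers include PAX8 and MUC16, already reported as not called. After correction the mesothelial CALB2 was lower in siI2 (-1.21, limma adjusted p = 0.0354). Of 4 tested epithelial markers, the simple keratins KRT8 and KRT18 were called higher in siI1 and 0 in siI2 and siI3, and after correction KRT8 was also called higher in siI2 (0.59, adjusted p = 0.0491) and KRT7 lower in siI3 (-0.65, 0.0175). KRT8 rose in siI1 to 147 ± 15.4 FPM, against 44.0 ± 8.17 in siC (limma log2 fold change 1.73, SE 0.21, adjusted p = 0.000173; corrected 1.52, adjusted p = 1.14e-05), and kept the call in all 6 fits with 1 library left out. KRT18 averaged 311 ± 53.3 FPM in siI1 and 158 ± 49.9 in siC (limma adjusted p = 0.0150; corrected 0.84, 0.00473), lost when siC replicate 1 or 3 or siI1 replicate 1 or 3 was left out (up to 0.103). Among relatives of WT1, EGR1, a zinc finger factor that binds similar DNA sites, rose in siI3 to 6.83 ± 0.459 FPM, against 2.33 ± 0.733 in siC (limma log2 fold change 1.26, SE 0.28, adjusted p = 0.0171; corrected 1.13, adjusted p = 0.0228), lost when siC replicate 1 or 3 or siI3 replicate 1 or 2 was left out (up to 0.110). WTAP, a partner of WT1, fell in siI3 (-1.03, adjusted p = 0.0287), lost after correction (0.0682) and in the same 4 fits. Over all lists, 25 pairs of gene and comparison were called against siC. Of these, 23 lost the call without siC replicate 1, 21 without siC replicate 3 and 0 without siC replicate 2, the replicate without the GC trend. The count of all genes called also moved widely with 1 library left out (given in the last section), so such losses are not particular to these lists. The part of the GC trend in them was not tested.

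The genes whose pattern over the 12 libraries was most like that of each tested member were taken from genes of at least 5 FPM on average, by Pearson's r of log2(FPM + 1). They are given as a description, since libraries share depth and GC trend. For ARID1A they were KDM6B (r = 0.956), FMNL1 (0.930) and ATN1 (0.916), all with over 60% GC. For BRAF they were EPB41L2 (0.901), KIAA0586 (0.901) and HELZ (0.900), with 39.7 to 45.6% GC. For PIK3CA they included RAB5A (0.923) and ASNSD1 (0.854), with 39.3 to 42.0% GC. For PAX8 they were DCHS1 (0.863), CTDNEP1 (0.830) and GALNT16 (0.806), and for MUC16 RNF152 (0.841), TBC1D3F (0.838) and TCF7L2 (0.805). The genes most like MUC16 were themselves 1.78 to 3.70 times as high in siI3 replicate 3 as in the other 11 libraries on average.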

How the data were processed

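Total RNA of 12 ES-2 libraries was depleted of ribosomal RNA and sequenced, per the labels' protocols. Per the submitters' processing notes, cutadapt 1.6, TopHat2 2.0.13 with hg19, featureCounts 1.4.6 and edgeR 3.12 were used; annotation release and strand setting were not given in the sources used here. Labels speak of parental cells in the treatment protocol, and groups and replicate numbers were taken from the titles and siRNA labels.

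The deposited table gives, per the file headers, FPM, a normalized signal, and for each knockdown the authors' log2 fold change and FDR, an adjusted p-value. Within a tolerance of 0.01, 100% of the deposited values were whole multiples of the value of a single read, and counts of reads were recovered from them. Of 57865 features, 92 spike-in RNAs were left out. Exon lengths and GC content come from GENCODE 29, matched by identifier for 52338 features. GC content, and the length used in the correction, are those of the longest transcript of a gene. GENCODE 29 is on another build than the reads, and no coordinate was carried over.

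filterByExpr (minimum count 10) on the recovered reads left 13782 genes. Genes were tested on log2(FPM + 1) in limma 3.58.1 (trended variance), all 12 libraries in 1 fit with 1 coefficient per group, with Benjamini-Hochberg adjustment within each comparison. The GC and length correction used a loess curve (span 0.5) per library over the 13361 tested genes (96.9%) with a value. edgeR 4.0.16 and DESeq2 1.42.0 in R 4.3.3 were run on the recovered reads, and the procedure was tested on simulated data. Intervals are limma's 95% intervals. The deposited values were also used with other pseudocounts, filters and scalings, and with each library left out; the GC correction with a library left out was chosen after seeing the data. All tables use the same floor of 3 reads, which covers counting error only.

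The members and gene lists were chosen with earlier results of these data known. The text names all 8 members, the IGF2BP genes, 3 most alike genes per tested member, close paralogs and antisense or pseudogene neighbours, and up to 4 called genes per list and comparison; other genes named are markers or were chosen after their values were seen. Some genes that these rules name are not reported here. Exact tests of 3 against 3 libraries cannot go below 0.1, so none are given.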

Additional observations from a re-analysis of the deposited data

How the results depend on the processing

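No member was called as reported. Of 390 fold changes of the 5 tested members under the alternatives, 354 kept direction and side of the threshold, 7 passed it and 29 changed sign, with 0 of those called. The GC-corrected fits with 1 library left out are not in this count. Against siC, 1 member was called in siI3 by DESeq2 and with only the 6 libraries compared (BRAF, -1.16 and -1.14). Leaving out 1 library gave 0 to 2 called members in siI2 (PAX8 1.56 and 1.59, PIK3CA -1.11) and 0 to 1 in siI3 (BRAF -1.43 and -1.36). Among all genes tested, such fits called 28 to 1572 in siI2 and 89 to 2824 in siI3. The PAX8 entries are a description because of the filter. In siI2 against siI3, 1 member, PAX8, was called after GC correction without siI3 replicate 3, again a description because of the filter. Reversed by GC correction, with or without replicate block, were ARID1A in siI1 (-0.26), siI2 (-0.26) and siI3 (-0.00) and PIK3CA in siI1 (0.26) and siI3 (0.42), and by edgeR ARID1A in siI1 against siI2 (-0.09). With 1 library left out, values that changed sign ranged, against siC, from -0.08 to 0.19 (siI1) and -0.31 to 0.24 (siI2) for ARID1A, -0.07 to 0.79 for MUC16 in siI1 and -0.48 to 0.23 for PIK3CA in siI3. In siI1 against siI2 they ranged from -0.18 to 0.37 (ARID1A) and -0.45 to 0.20 (BRAF), in siI1 against siI3 from -0.08 to 0.58 (BRAF), -0.60 to 0.18 (PAX8) and -1.33 to 0.35 (MUC16), and in siI2 against siI3 from -0.91 to 0.76 (MUC16) and -0.54 to 0.00 (ARID1A). The count of all called genes moved more. In siI1, siI2 and siI3 against siC, in this order, it was 2014, 716 and 2296 by DESeq2, 481, 77 and 461 without a filter, 696, 95 and 745 with a replicate block, 742, 130 and 545 with block and GC correction, and 268 to 2602, 28 to 1572 and 89 to 2824 with 1 library left out. With only the 6 libraries compared it was 2039 in siI1 and 37 in siI2, scaled by total reads 121 in siI2 and 599 in siI3, and after GC correction 948 in siI3. Between knockdowns it was 663, 1596 and 532 after GC correction for siI1 against siI2, siI1 against siI3 and siI2 against siI3, and 127 to 243, 546 to 1223 and 112 to 410 with 1 library left out. The cause of these moves was not tested. Deviations from the group means correlated from -0.46 to 0.45 between same-numbered libraries (median -0.05), and 7 of 18 pairs lay over 0.1. Between libraries of other numbers they correlated from -0.323 to 0.425 (median 0.0656), and 17 of 36 pairs lay over 0.1. The numbers were therefore not taken as pairs, and the block called 0 members. Depth limits PAX8, WT1, MSLN, FOLR1 and MUC16 most, at medians under 1.4 FPM.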
